A study of Mus musculus with 6 samples.

Results

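The 10 genes described here encode the kinases, adaptors and scaffolds that act above the LATS kinases in the Hippo pathway: the MST kinases *Stk3* and *Stk4*, their adaptor *Sav1*, the LATS co-activators *Mob1a* and *Mob1b*, the membrane scaffolds *Nf2*, *Wwc1* and *Wwc2*, and the kinases *Taok1* and *Map4k4*. They were taken by gene symbol, a choice made with earlier results of these data known, and all 10 of 10 had a row among the 37384 gene symbols of the count table and passed the filter on low counts. In the L1L2-AKO-labelled libraries, 4 of the 10 rose past the threshold (*Wwc1*, *Wwc2*, *Stk4* and *Sav1*) and 0 fell, against 9.28% and 7.18% of the 15674 genes tested. Per kilobase of the longest coding transcript, *Wwc1* went from the lowest level of the 10 to one that overlapped that of *Wwc2*, while *Stk3*, *Mob1b*, *Taok1* and *Map4k4* differed by less than the spread between libraries.

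RNA was measured in adipocytes that floated after collagenase digestion of inguinal subcutaneous white adipose tissue from male mice at postnatal day 7. There were 3 libraries of L1L2-FF mice (Lats1f/fLats2f/f) and 3 of L1L2-AKO mice (Lats1f/fLats2f/fAdipoqCre), and each library was made from 4 pooled mice. Both genotypes carry floxed *Lats1* and *Lats2* alleles, so they differ by the Cre recombinase, which is driven by the promoter of *Adipoq* and acts in cells that express that adipocyte gene. The floxed lines came from mixed strain backgrounds, and the controls carried no Cre. A library is the unit of replication, the p-values measure the spread between pools of mice, and in such bulk samples fewer cells of a type and less RNA per cell cannot be told apart.

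In the canonical Hippo cascade, MST kinases bound to SAV1 phosphorylate LATS kinases and their MOB1 partners, and LATS kinases then phosphorylate the co-activators YAP and TAZ, which keeps them out of the nucleus. NF2 and the WWC proteins bring LATS kinases to the membrane, TAO kinases act on MST and LATS, and MAP4K kinases act on LATS beside the MST kinases. When phosphorylation falls, YAP and TAZ bind TEAD factors at DNA and raise their targets, among which are some genes of the pathway itself.

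Total counts ranged from 30548473 to 32107917 per library. *Lats1* had 2383, 3049 and 2434 counts in the L1L2-FF libraries and 1291, 1299 and 1160 in those labelled L1L2-AKO, a fall of 1.04 on the log2 scale (± 0.12 SE, adjusted p = 0.00131, edgeR quasi-likelihood test, Benjamini-Hochberg adjusted). *Lats2* went against the label: it had 2348, 2772 and 2127 counts in L1L2-FF and 3188, 3987 and 3879 in the L1L2-AKO-labelled libraries, a log2 fold change of 0.64 ± 0.16 (SE, adjusted p = 0.0278, same test). Counts summed over a whole gene include exons outside a deleted part, and 41.2% of the 50-base stretches of *Lats2* also occur in the readthrough transcript *Gm49361*, so its sum is uncertain as a check of the deletion; the libraries are named by their labels throughout. By quantitative PCR, the paper reports reduced mRNA of both *Lats1* and *Lats2* in adipocytes isolated from L1L2-AKO mice of the same age. That measurement was not made on the sequenced libraries. Adipocyte markers were abundant in both groups. Their sum was 26960 to 35420 CPM (counts scaled to library size, defined with the values below) in L1L2-FF. In the L1L2-AKO-labelled libraries it was 28360 to 36860 CPM. The highest count of a single marker was 433046 in L1L2-FF and 578241 in the L1L2-AKO-labelled libraries, so the sums weigh the most abundant markers. Of these 10 markers, 2 fell past the threshold and 0 rose, with a median log2 fold change of -0.50. For 6 of them every L1L2-AKO-labelled library was below every L1L2-FF library, and for 1 every such library was above. The shares of all genes tested that were separated in these ways were 18.4% and 18.0%. Past the threshold, 7.18% of all genes tested fell and 9.28% rose, the shares to set beside the marker counts of this paragraph. All 10 of 10 macrophage markers rose, from a sum of 241 to 474 CPM to one of 901 to 1023 CPM. Of the Schwann cell markers 4 of 6 fell, of the mural markers 1 of 6 rose and 2 fell, and of the progenitor markers 1 of 7 fell, whereas 0 of 6 T and B cell and 0 of 8 endothelial markers passed the test; no marker of these lists was at 0 in a whole group. The part of these cells in the results below was not tested.

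Of the 10 upstream genes, RefSeq promoter sequence (GRCm38.p6) was at hand for 8, with *Stk3* and *Map4k4* missing. The 250 bases before each start were searched on both strands for GGAATG, the core of the site that TEAD factors prefer, read as CATTCC where it lies on the other strand. The *Wwc2* window held 3 matches, with first bases 203, 94 and 79 bases before the start, *Sav1* held 1 at 106 bases and *Mob1a* held 1 at 209 bases. Among 32851 promoters of that length, 12.6% held at least 1 match and 0.082% held at least 3. The windows of *Wwc1*, *Stk4*, *Mob1b*, *Nf2* (2 promoters) and *Taok1* did not hold these letters, which says nothing about a factor's binding there. The *Stk4* window (chr2:164073888-164074137) and 1 *Nf2* window (chr11:4833136-4833385) lie within the GENCODE spans of their genes. The bases before the outermost GENCODE start of *Stk4* (chr2:164070322) were therefore not searched. The full windows of the 2 WWC genes are shown since they had the largest and second largest change among the upstream genes, with 60 bases around the match for *Sav1* and *Mob1a*; capitals mark the matches. All are written on the gene's own strand: *Wwc1* is chr11:35980528-35980777 (minus), *Wwc2* is chr8:47990545-47990794 (minus), *Sav1* is chr12:69987076-69987135 (minus) and *Mob1a* is chr6:83325803-83325862 (plus).
Wwc1: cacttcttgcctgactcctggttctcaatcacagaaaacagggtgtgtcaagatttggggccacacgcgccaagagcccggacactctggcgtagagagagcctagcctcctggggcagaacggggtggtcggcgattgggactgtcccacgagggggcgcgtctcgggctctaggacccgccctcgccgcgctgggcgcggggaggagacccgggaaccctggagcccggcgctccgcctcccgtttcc
Wwc2: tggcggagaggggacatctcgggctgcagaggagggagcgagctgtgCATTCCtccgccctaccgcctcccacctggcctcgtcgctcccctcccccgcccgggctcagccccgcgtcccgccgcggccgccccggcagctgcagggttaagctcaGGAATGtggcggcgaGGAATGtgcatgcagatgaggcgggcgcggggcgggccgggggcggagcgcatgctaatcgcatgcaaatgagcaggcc
Sav1: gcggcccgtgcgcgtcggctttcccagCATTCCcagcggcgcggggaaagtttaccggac
Mob1a: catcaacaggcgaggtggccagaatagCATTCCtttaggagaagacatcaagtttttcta

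Levels are given as CPM: counts scaled to one common library total, after TMM factors corrected the totals for differences in composition, and fold changes compare the L1L2-AKO-labelled libraries with L1L2-FF. The threshold was an adjusted p under 0.05 over all 15674 genes tested, and since the upstream genes were not chosen blind to these data, their counts describe them beside the shares of all genes. All 6 libraries were separated by genotype, with every L1L2-AKO-labelled library above every L1L2-FF library, for 6 of the 10 (the same 4 with *Mob1a* and *Nf2*), against 18.0% of all genes tested. None of the 10 was separated the other way, against 18.4% of all genes tested. The median log2 fold change was 0.36 over the 10 upstream genes and -0.02 over all genes tested.

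**Figure D1:**
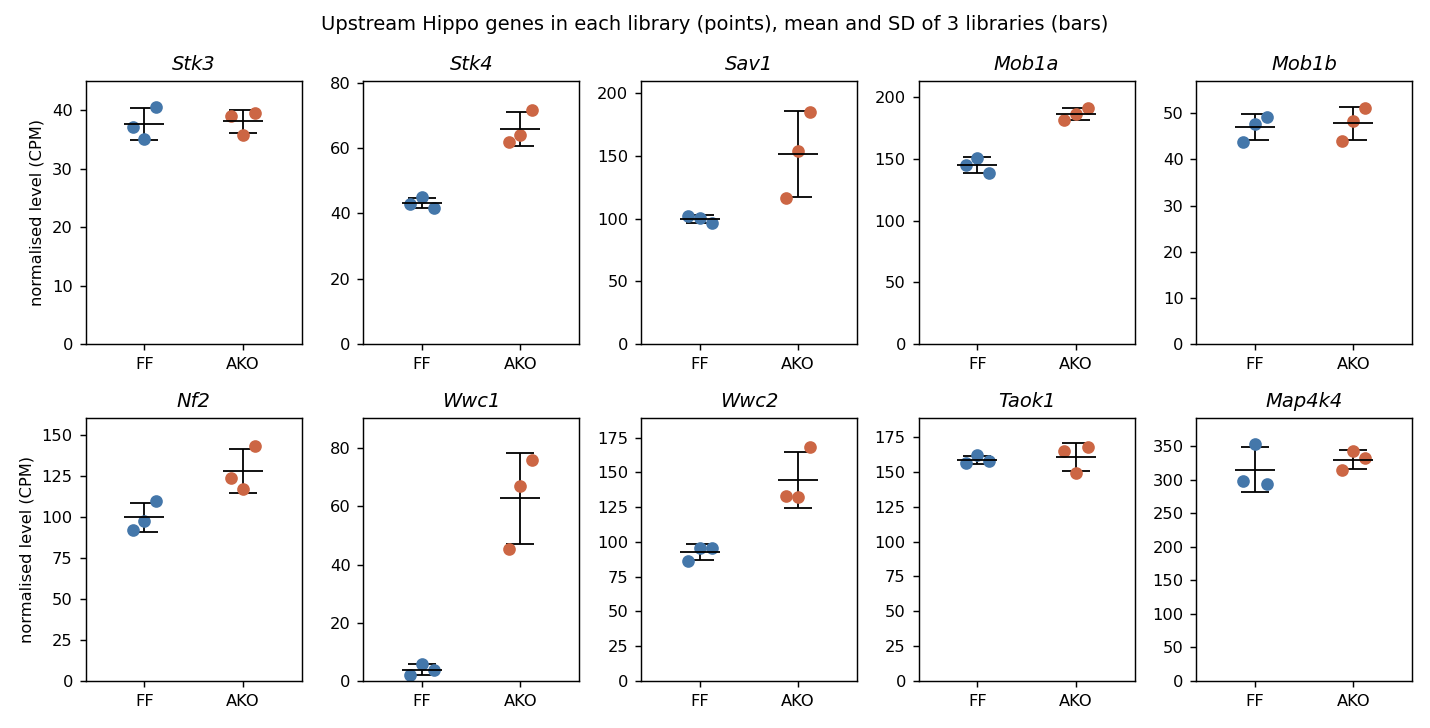
Normalised level (CPM, vertical axes from 0 with a scale for each gene) of the 10 upstream genes in the 3 L1L2-FF (FF) and 3 L1L2-AKO (AKO) libraries, by label; points are libraries, bars the mean and SD. *Wwc1* lies at 2.11 to 5.75 CPM in L1L2-FF and at 45.3 to 75.8 CPM in the L1L2-AKO-labelled libraries, while the groups overlap for *Stk3*, *Mob1b*, *Taok1* and *Map4k4*.

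*Stk3* (MST2) and *Stk4* (MST1) are the kinases at the head of the core cascade, and only *Stk4* passed the test. *Stk4* (chr2:164070322-164155524, plus strand, mm10) had 42.9, 44.9 and 41.7 CPM in the L1L2-FF libraries and 61.8, 64.1 and 71.6 CPM in those labelled L1L2-AKO. The groups did not overlap, and the lowest library labelled L1L2-AKO stood well above the highest L1L2-FF library. The fold change was 1.53 (95% interval 1.29 to 1.81; log2 0.61 ± 0.11 SE, adjusted p = 0.00736, edgeR quasi-likelihood test, Benjamini-Hochberg adjusted), and the call remained in all 16 alternative settings. *Stk3* (chr15:34875496-35178921, minus strand) had 37.1, 35.1 and 40.6 CPM in L1L2-FF and 39.1, 35.8 and 39.4 CPM in the L1L2-AKO-labelled libraries. Its groups overlapped throughout, with the highest library in L1L2-FF, and the 95% interval of the fold ran from 0.852 to 1.21 (adjusted p = 0.931, same test).

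*Sav1*, the WW-domain adaptor that holds the MST kinases in an active complex, rose with the largest standard error of the called upstream genes other than *Wwc1*. The gene (chr12:69965012-69987002, minus strand) had 102, 100.4 and 96.3 CPM in L1L2-FF and 116, 154 and 185 CPM in the L1L2-AKO-labelled libraries. The L1L2-FF libraries lay close together, whereas L1L2-AKO replicate 1 was only a little above them and replicate 3 was highest. The fold change was 1.52 (95% interval 1.16 to 1.99; log2 0.61 ± 0.17 SE, adjusted p = 0.0447, edgeR quasi-likelihood test, Benjamini-Hochberg adjusted). The call was lost in 5 of 6 fits without a library: leaving out L1L2-FF replicate 1, 2 or 3 gave an adjusted p of 0.12, 0.0691 or 0.0906 (same test), leaving out L1L2-AKO replicate 2 or 3 gave 0.131 or 0.127, and leaving out L1L2-AKO replicate 1 gave 0.0111. *Sav1* shares 24.7% of its 50-base stretches with exons of *Atl1* on the opposite strand, and the counting strand is not known, so its counts are uncertain; *Atl1* itself had 199, 198 and 172 counts in L1L2-FF and 491, 552 and 602 in the L1L2-AKO-labelled libraries, beside 3211, 3246 and 2988 against 3858, 4865 and 5296 for *Sav1*.

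The MOB1 proteins bind LATS kinases and raise their activity once phosphorylated by MST kinases. *Mob1a* (chr6:83326016-83343776, plus strand) had 145, 151 and 138 CPM in L1L2-FF and 182, 186 and 191 CPM in the L1L2-AKO-labelled libraries. The groups were narrow and did not overlap, yet the fold change of 1.29 (95% interval 1.09 to 1.52) lay at the threshold without passing it (log2 0.36 ± 0.10 SE, adjusted p = 0.0506, edgeR quasi-likelihood test, Benjamini-Hochberg adjusted). With DESeq2's size factors the adjusted p was 0.0474, and the adjusted p was below 0.05 in 5 of 16 alternatives in all, so the side of the threshold on which *Mob1a* falls depends on the setting. *Mob1b* (chr5:88720855-88764220, plus strand) had 43.8, 47.7 and 49.2 CPM in L1L2-FF and 43.9, 48.4 and 51.0 CPM in the L1L2-AKO-labelled libraries. The ranges nearly coincided, and the interval of the fold ran from 0.856 to 1.21 (adjusted p = 0.899, same test).

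*Nf2* encodes merlin, which links the membrane and its junctions to the Hippo kinases. The gene (chr11:4765845-4849536, minus strand) had 92.2, 97.7 and 109.6 CPM in L1L2-FF and 124, 117 and 143 CPM in the L1L2-AKO-labelled libraries. All 3 libraries labelled L1L2-AKO were above the L1L2-FF libraries, but the spread within each group was wide relative to the gap. The fold change of 1.29 (95% interval 1.05 to 1.57, log2 0.36 ± 0.13 SE) did not pass the threshold (adjusted p = 0.0881, edgeR quasi-likelihood test, Benjamini-Hochberg adjusted), nor did it under any of 16 alternatives.

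*Wwc1*, which encodes the scaffold KIBRA, had the largest difference of the 10 upstream genes. The gene (chr11:35838400-35980527, minus strand) had 66, 186 and 119 counts in L1L2-FF and 1503, 2115 and 2171 counts in the L1L2-AKO-labelled libraries. In CPM these were 2.11, 5.75 and 3.83 against 45.3, 67.1 and 75.8. Every L1L2-FF library was far below every L1L2-AKO-labelled library, although the L1L2-FF libraries also differed among themselves. The fold change was 16.1 (95% interval 9.02 to 28.6; log2 4.01 ± 0.36 SE, adjusted p = 0.000571, edgeR quasi-likelihood test, Benjamini-Hochberg adjusted), and across 16 alternatives the log2 fold change stayed between 3.70 and 4.40 with every adjusted p at or below 0.00425.

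KIBRA is also made by epithelial cells, so 10 epithelial genes were added to the marker lists after the values of *Wwc1* had been seen. *Epcam* had at most 4 counts in a library labelled L1L2-AKO and at most 32 in L1L2-FF. *Cdh1* (E-cadherin) had 8, 37 and 29 counts in the L1L2-AKO-labelled libraries and 43, 155 and 64 in L1L2-FF. The basal keratins *Krt5* and *Krt14* had at most 5 and 4 counts in the L1L2-AKO-labelled libraries, while *Krt19* (34, 56 and 57 counts) and *Krt7* (10, 81 and 71 counts) had higher counts there than in L1L2-FF, where neither exceeded 14. Of the 10 genes, 2 passed the filter on low counts: *Krt19*, which rose (log2 fold change 2.23 ± 0.50 SE, adjusted p = 0.0211, edgeR quasi-likelihood test, Benjamini-Hochberg adjusted), and *Cdh1*, which did not pass the test (log2 fold change -1.77 ± 0.63, adjusted p = 0.0977). The 10 genes together summed to 3.54 to 7.38 CPM in L1L2-FF and 2.50 to 5.94 CPM in the L1L2-AKO-labelled libraries. The part of epithelial cells in the rise of *Wwc1* was not tested.

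*Wwc2*, the paralog of KIBRA, rose as well, by a much smaller factor and from a higher level. The gene (chr8:47823959-47990924, minus strand) had 86.1, 95.9 and 95.8 CPM in L1L2-FF and 133, 132 and 168 CPM in the L1L2-AKO-labelled libraries. The groups did not overlap, and L1L2-AKO replicate 3 stood above the other two libraries of its group. The fold change was 1.56 (95% interval 1.27 to 1.92; log2 0.64 ± 0.13 SE, adjusted p = 0.0144, edgeR quasi-likelihood test, Benjamini-Hochberg adjusted), and the adjusted p was 0.0702 without L1L2-FF replicate 1. *Wwc2* shares 6.89% of its 50-base stretches with *Cldn22* on the opposite strand, which had at most 17 counts in a library. The printed upstream window lies within the GENCODE span of *Wwc2*, which reaches further upstream through another transcript.

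*Taok1* and *Map4k4*, the kinases that act on MST and LATS from outside the core, showed no detectable difference. *Taok1* (chr11:77529162-77607815, minus strand) had 156, 162 and 158 CPM in L1L2-FF and 165, 149 and 168 CPM in the L1L2-AKO-labelled libraries. *Map4k4* (chr1:39900913-40026310, plus strand) had 297, 353 and 293 CPM in L1L2-FF and 314, 343 and 331 CPM in the L1L2-AKO-labelled libraries. For both genes the L1L2-FF and L1L2-AKO ranges overlapped. The intervals of the fold, 0.853 to 1.20 for *Taok1* (adjusted p = 0.938) and 0.853 to 1.29 for *Map4k4* (adjusted p = 0.778, edgeR quasi-likelihood test, Benjamini-Hochberg adjusted), bound the change that could have been missed. *Taok1* shares 0.404% of its 50-base stretches with *Abhd15* on the opposite strand.

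**Figure D2:**
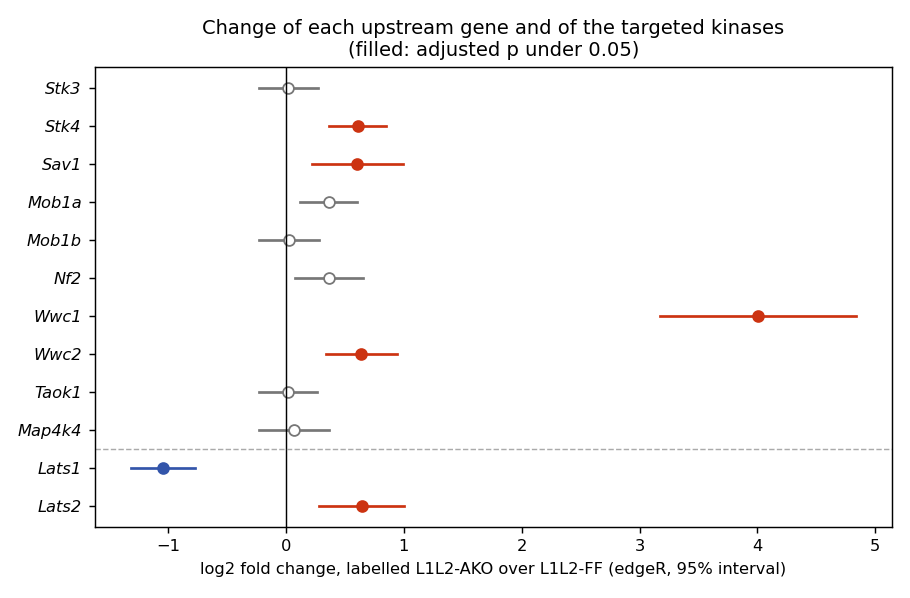
Log2 fold change of each upstream gene and, below the dashed line, of the targeted kinases, with its 95% interval from edgeR; filled points have an adjusted p under 0.05. *Wwc1* stands at 4.01, *Stk4*, *Sav1* and *Wwc2* lie between 0.61 and 0.64, and the intervals of *Stk3*, *Mob1b*, *Taok1* and *Map4k4* include 0.

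Scaled to transcript length, the upstream genes spanned a wide range of levels. The scale used is CPM per kilobase of the longest coding transcript. In L1L2-FF *Map4k4* was highest at 54.4 ± 5.73 (SD, n = 3), followed by *Sav1* (39.5), *Mob1a* (32.8) and *Nf2* (21.1), and the ranges of these neighbours did not overlap. *Stk3* (12.9) and *Taok1* (12.8) overlapped, and below them came *Wwc2* (10.7), *Stk4* (8.25), *Mob1b* (5.23) and, far below the rest, *Wwc1* (0.86 ± 0.40 SD). In the L1L2-AKO-labelled libraries, *Sav1* (60.2 ± 13.6) and *Map4k4* (57.0 ± 2.51) overlapped at the top. *Wwc2* (16.7), *Wwc1* (13.9), *Stk3* (13.1), *Taok1* (12.9) and *Stk4* (12.6) formed a run in which each neighbour overlapped the next, and *Mob1b* (5.33) was lowest. The order depends on the transcript assumed. Per kilobase of all exons, *Map4k4* (32.8) and *Mob1a* (30.2) overlapped at the top in L1L2-FF, *Sav1* came next at 18.9, *Stk4* (7.37) lay above *Wwc2* (6.72) and *Stk3* (6.15), and *Wwc1* was again lowest at 0.79. In the L1L2-AKO-labelled libraries on that scale, *Mob1a* was highest at 38.9 without overlapping *Map4k4* (34.4), which overlapped *Sav1* (28.8). *Wwc1* (12.7) there overlapped its neighbours *Taok1* (12.9) and *Stk4* (11.2), with *Wwc2* (10.5), *Stk3* (6.23) and *Mob1b* (3.18) below.

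**Figure D3:**
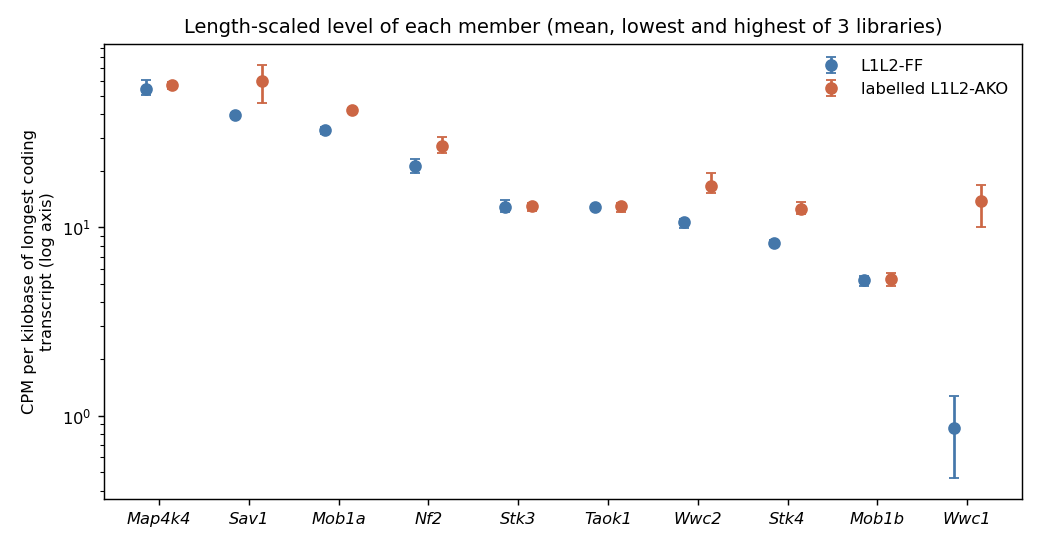
Level of each upstream gene in CPM per kilobase of its longest coding transcript (log axis), ordered by the L1L2-FF mean; points are means and bars run from the lowest to the highest of 3 libraries. *Wwc1* moves from 0.86 in L1L2-FF to 13.9 in the L1L2-AKO-labelled libraries, while *Map4k4*, *Stk3*, *Taok1* and *Mob1b* stay in place.

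The paralog pairs were compared by the ratio of the counts of the first gene to the second within each library, which does not depend on library scaling. The log2 ratio of *Stk3* to *Stk4* was -0.20 ± 0.16 (SD, n = 3) in L1L2-FF and -0.79 ± 0.11 in the L1L2-AKO-labelled libraries, a difference of -0.59. That of *Mob1a* to *Mob1b* was 1.63 ± 0.12 and 1.97 ± 0.07, a difference of 0.34. That of *Wwc1* to *Wwc2* was -4.68 ± 0.65 and -1.23 ± 0.29, a difference of 3.46. In each pair the 3 libraries of one group lay wholly on one side of the other group. An exact permutation test, two-sided, gave p = 0.1 for each pair (0.1 after Benjamini-Hochberg adjustment over 3 pairs), the smallest value that 3 libraries against 3 can give, so the design cannot pass a threshold of 0.05 here. Per kilobase of the longest coding transcript, *Wwc1* made up 7.30% ± 2.92 of the summed WWC level in L1L2-FF and 45.0% ± 5.00 in the L1L2-AKO-labelled libraries, and 10.2% ± 3.96 and 54.2% ± 5.05, respectively, per kilobase of all exons. Per kilobase of the longest coding transcript, the WWC sum was 11.5 ± 1.02 CPM in L1L2-FF and 30.5 ± 5.39 in the L1L2-AKO-labelled libraries. The ratio was 2.64, beside ratios of 1.21 for the MST pair and 1.25 for the MOB1 pair. With all exons as the length, these ratios were 3.08, 1.29 and 1.26, respectively.

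**Figure D4:**
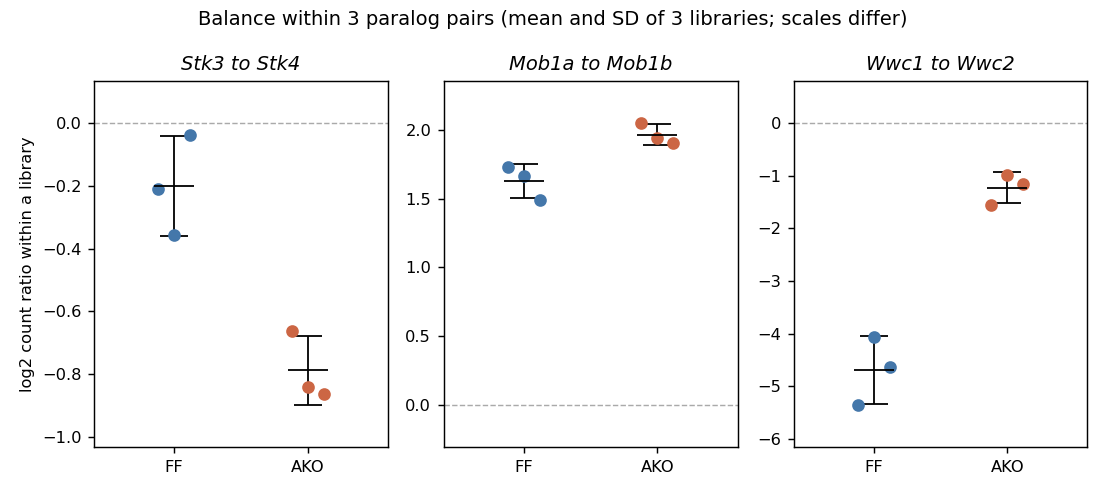
Log2 ratio of counts within each library for the pairs *Stk3* to *Stk4*, *Mob1a* to *Mob1b* and *Wwc1* to *Wwc2* (FF, L1L2-FF; AKO, labelled L1L2-AKO; mean and SD of 3 libraries; the vertical scale differs between panels). The mean moves by -0.59, 0.34 and 3.46, and in no panel do the groups overlap.

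Likeness between profiles over the 6 libraries was measured as the root mean square difference of log2 CPM after each gene's own mean was removed, as a description with no test. The measure includes the difference between the groups, so genes with similar fold changes come out near each other. *Stk4* and *Wwc2* were each other's nearest profile among the 10 (0.08), as were *Stk3* and *Taok1* (0.07) and *Mob1a* and *Nf2* (0.13). *Sav1* was nearest to *Stk4* (0.14), *Mob1b* to *Taok1* (0.10) and *Map4k4* to *Mob1b* (0.10). *Wwc1* lay far from all, its nearest being *Wwc2* at 1.76.

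The other genes of the pathway were taken from lists of 56 genes, all of which were tested. Of these, 10 rose past the threshold, 3 fell and 43 did not pass, against 9.28% and 7.18% of all genes tested, and the median log2 fold change was 0.11. Among the other MAP4K and TAO kinases, 3 of 8 rose and 0 fell (median 0.29). *Map4k3*, a kinase of the same family as *Map4k4*, had 105, 119 and 93.9 CPM in L1L2-FF and 125, 178 and 212 CPM in the L1L2-AKO-labelled libraries (log2 fold change 0.70 ± 0.20 SE), *Taok3* had a log2 fold change of 0.62 ± 0.15 and *Map4k5* one of 0.48 ± 0.10. The adjusted p-values of these 3 genes were 0.0468, 0.0246 and 0.0177, respectively (edgeR quasi-likelihood test, Benjamini-Hochberg adjusted). *Map4k3* passed in 7 of 10 settings that kept all libraries, and its call was lost when L1L2-FF replicate 1 or 3 (adjusted p = 0.137 or 0.106) or L1L2-AKO replicate 2 or 3 (0.138 or 0.14) was left out. *Taok3* lost its call with L1L2-AKO replicate 2 or 3 (0.0958 or 0.0807) left out, and *Map4k5* with L1L2-FF replicate 1 (0.0713) or L1L2-AKO replicate 1 or 2 (0.0514 or 0.0749) left out. *Taok1* and *Map4k4* had family members that passed the test where they did not, but a difference between family members was not tested.

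Among the other scaffolds and junction proteins, 1 of 10 rose and 1 fell (median -0.06), close to the 9.28% and 7.18% of all genes tested. Both encode angiomotins, which bind YAP and LATS at junctions. *Amotl2* had 272, 443 and 236 CPM in L1L2-FF and 610, 906 and 1042 CPM in the L1L2-AKO-labelled libraries, without overlap (log2 fold change 1.43 ± 0.29 SE, adjusted p = 0.0134, edgeR quasi-likelihood test, Benjamini-Hochberg adjusted). *Amotl1* went the other way, with 168, 164 and 152 CPM in L1L2-FF and 116, 84.0 and 83.0 CPM in the L1L2-AKO-labelled libraries (log2 fold change -0.77 ± 0.15 SE, adjusted p = 0.0127, same test). The third angiomotin, *Amot*, did not pass (log2 fold change 0.36 ± 0.18, adjusted p = 0.208). The call of *Amotl2* was lost when L1L2-FF replicate 1 (adjusted p = 0.0643) or L1L2-AKO replicate 2 (0.0506) was left out. That of *Amotl1* was lost when L1L2-FF replicate 1 (0.0607), L1L2-AKO replicate 2 (0.0644) or L1L2-AKO replicate 3 (0.0583) was left out.

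AJUBA family proteins, MARK kinases and ITCH are listed here as restraints on LATS or the MST complex. In this group 4 of 8 rose and 0 fell (median 0.27), against 9.28% and 7.18% of all genes tested. *Ajuba*, a LIM protein that binds LATS, had 30.6, 32.1 and 26.3 CPM in L1L2-FF and 72.5, 62.2 and 73.0 CPM in the L1L2-AKO-labelled libraries. *Wtip*, of the same family, had 14.6, 16.7 and 14.9 CPM in L1L2-FF and 30.6, 34.3 and 38.5 CPM in the L1L2-AKO-labelled libraries. The groups were far apart for both genes, with log2 fold changes of 1.23 ± 0.12 and 1.16 ± 0.13 (SE) and adjusted p-values of 0.000871 and 0.00133 (edgeR quasi-likelihood test, Benjamini-Hochberg adjusted). The kinases *Mark1* and *Mark4* had log2 fold changes of 0.63 ± 0.15 and 0.51 ± 0.13 (adjusted p = 0.0287 and 0.0315), whereas *Limd1*, the third member of the AJUBA family, had one of -0.01 ± 0.11. The call of *Mark1* was lost when L1L2-FF replicate 1 or 3 (adjusted p = 0.0528 or 0.0643) or L1L2-AKO replicate 2 or 3 (0.117 or 0.0933) was left out, and that of *Mark4* was kept only when L1L2-FF replicate 1 was left out (0.0429), its adjusted p in the other 5 such fits reaching 0.108.

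Members of the RASSF family bind MST kinases through a shared domain. In this family 2 of 6 rose and 1 fell (median 0.42), against 9.28% and 7.18% of all genes tested. *Rassf5* and *Rassf4* had log2 fold changes of 1.15 ± 0.28 and 0.92 ± 0.21 (SE, adjusted p = 0.030 and 0.023, edgeR quasi-likelihood test, Benjamini-Hochberg adjusted). *Rassf5* is known from leukocytes, and the macrophage markers rose in the same libraries; the part of those cells in its rise was not tested. *Rassf6* fell from 89, 94 and 56 counts to 10, 22 and 21 counts (log2 fold change -2.13 ± 0.40, adjusted p = 0.0106, same test). Of the GCKIII and NDR kinases, 0 of 5 rose and 1 fell, the NDR kinase *Stk38l*, a relative of the LATS kinases (log2 fold change -0.71 ± 0.18, adjusted p = 0.0297). The STRIPAK complex, a phosphatase assembly that acts on MST kinases, had 0 of 15 genes past the threshold (median 0.10). Its most abundant gene *Ppp2ca* had a log2 fold change of 0.03 ± 0.16. *Strn* and *Strn3*, each at 0.34 ± 0.10, lay just short of the threshold (adjusted p = 0.0529 and 0.0577, same test). The groups did not overlap for 5 of the 15 genes upward and 1 downward, against 18.0% and 18.4% of all genes tested. The other MOB proteins had 0 of 4 genes past the threshold (median 0.09). *Mob3b*, the most abundant over the 6 libraries together, was at 0.29 ± 0.23. *Mob2*, the most abundant in L1L2-FF, was at -0.32 ± 0.11 (adjusted p = 0.096, groups not overlapping). The call of *Rassf4* was lost when L1L2-FF replicate 1 or 3 (adjusted p = 0.09 or 0.0565) or L1L2-AKO replicate 1 or 2 (0.0593 or 0.0621) was left out. That of *Rassf5* was lost with L1L2-FF replicate 1 or 3 (0.108 or 0.0506) or L1L2-AKO replicate 2 or 3 (0.104 or 0.0916) left out, and that of *Stk38l* with L1L2-FF replicate 1 (0.0552) or L1L2-AKO replicate 1, 2 or 3 (0.0772, 0.116 or 0.0681) left out.

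**Figure D5:**
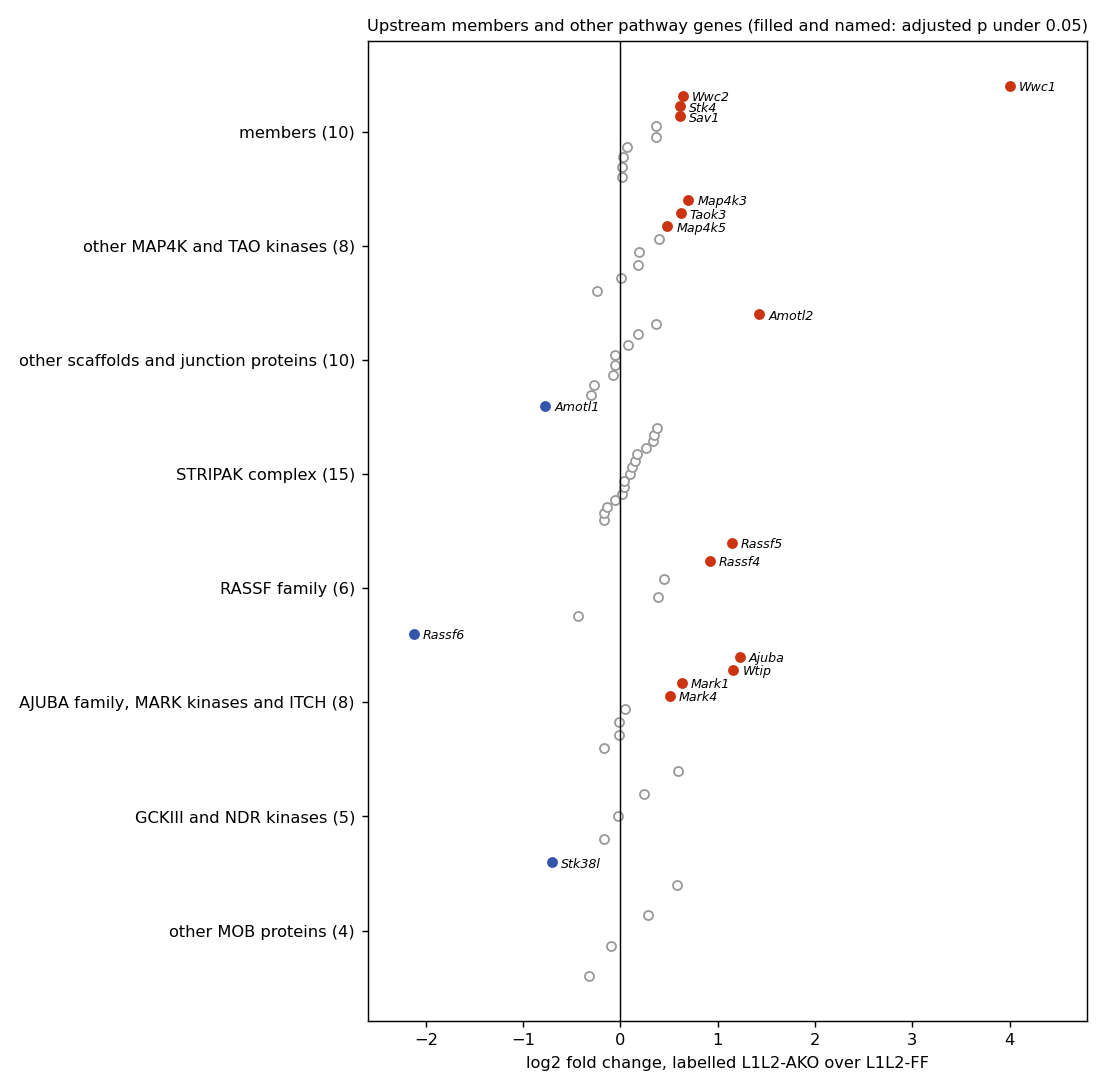
Log2 fold change of the 10 upstream genes and of 56 other pathway genes by list (number of genes in brackets); each point is a gene, spread vertically by rank, and filled, named points have an adjusted p under 0.05. *Wwc1* lies apart at 4.01, all 15 STRIPAK genes lie between -0.17 and 0.37, and angiomotins stand at both 1.43 (*Amotl2*) and -0.77 (*Amotl1*).

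Of the 13 other pathway genes past the threshold, *Rassf6*, *Ajuba* and *Wtip* passed whichever library was left out. The remaining 10 lost the call in at least 2 of the 6 such fits, and the count was 5, 13 or 9 when L1L2-FF replicate 1, 2 or 3 was left out and 9, 3 or 6 when L1L2-AKO replicate 1, 2 or 3 was left out. Among the upstream genes, *Stk4* and *Wwc1* passed whichever library was left out.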

How the data were processed

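RNA-seq of floated adipocytes was available for 6 libraries, 3 labelled L1L2-FF and 3 labelled L1L2-AKO. Per the paper's methods and the submitters' processing notes, the authors sequenced paired ends on a BGISEQ-500, aligned reads to mm10 with HISAT2 2.1.0 and processed alignments with StringTie 1.3.5. The authors deposited raw, unnormalized counts for each gene symbol; the counting program, the gene annotation and its strand setting are not given in the sources used here. All 6 columns were used, and 0 rows named no gene. Depth was 30548473 to 32107917 counts per library.

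Counts were tested in R 4.3.3 with edgeR 4.0.16: filterByExpr (minimum count 10, minimum total count 15) kept 15674 genes, TMM factors (0.924 to 1.06) scaled libraries, and the quasi-likelihood test, two-sided, was adjusted by Benjamini-Hochberg over all genes tested with a threshold of 0.05. Standard errors and 95% intervals come from that fit. limma 3.58.1 (voom) and DESeq2 1.42.0 (Wald test, size factors) served as alternatives, with other scalings and filters and fits that dropped each library once. The scripts were tested on simulated counts. Ratios of paralogs were tested by exact permutation over libraries in Python 3.11.15 with scipy 1.17.1. Positions, lengths and shared 50-base stretches come from GENCODE M21 (GRCm38, the same build as mm10), in which 36877 of 37384 symbols matched once; promoters come from RefSeq.

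Named were all 10 upstream genes, the targeted kinases, each other pathway gene past the threshold (the most abundant one where a list had none), and non-passing relatives and overlapping genes chosen after their values were seen. The upstream genes and the lists were chosen with earlier results of these data known.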

Additional observations from a re-analysis of the deposited data

How the results depend on the processing

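The 3 counts and each upstream gene's fold change were recomputed under 16 alternatives. When single libraries were dropped, the genes past the threshold numbered 1281 to 2845 against 2580 with all libraries, and L1L2-FF replicate 1 (1290), L1L2-AKO replicate 2 (1281) and L1L2-AKO replicate 3 (1374) each lowered the count by more than 1.5 times. The upstream genes past it numbered 2 (L1L2-FF replicate 1 dropped) to 4, against 4, and the other pathway genes 3 to 13, against 13. In the other settings the upstream genes past the threshold numbered 3 to 5 and the other pathway genes 11 to 17. The upstream genes gained or lost were *Mob1a*, *Sav1* and *Wwc2*; the cause was not tested.

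Same-numbered libraries had deviations correlated at 0.188, 0.255 and -0.0544, so the numbers were not taken to pair the libraries, and L1L2-FF replicate 3 correlated best with L1L2-AKO replicate 1. With a replicate block, 2514 genes, 3 upstream genes and 11 other pathway genes passed, and *Sav1* did not (adjusted p = 0.063, edgeR quasi-likelihood test, Benjamini-Hochberg adjusted). The paralog differences stayed at -0.59, 0.34 and 3.46 with the replicate block, and the exact permutation within numbers gave p = 0.25, the smallest it allows. With single libraries dropped they ranged from -0.66 to -0.51, from 0.27 to 0.39 and from 3.12 to 3.77.

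The sign of 3 log2 fold changes near 0 turned. With upper-quartile scaling *Stk3* was at -0.015, *Mob1b* at -0.0083 and *Taok1* at -0.019, and with library size alone *Taok1* was at -0.0034. With single libraries dropped *Stk3* ranged from -0.029 to 0.074, *Mob1b* from -0.026 to 0.084 and *Taok1* from -0.0068 to 0.070. No setting moved the median of all genes by 0.1 or more.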
